A study of Homo sapiens with 6 samples.

Results

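The mitochondrial ribosomal protein genes were taken as the nuclear genes whose current symbol is MRPL or MRPS followed by a number and, in some, a letter from A to C. A probe set, the small group of probes that covers a stretch of an exon, was used where the platform annotation gave it a single gene symbol and that symbol, after older aliases were updated, had this form. The rule used no measured value. It found 77 genes of the 19488 that carry such probe sets, 49 of the large subunit (MRPL) and 28 of the small subunit (MRPS). Of these, 76 could be measured, the 49 large-subunit genes and 27 small-subunit genes, among 17841 measured genes in all. MRPS28 was the member without a value, because 1 of its 2 probe sets was bright enough to be used and a gene needed 2; a further 4 probe sets name both it and the neighbouring TPD52. The members were covered by 4 to 24 used probe sets each, with a median of 10. Old names in the annotation led to MRPL57, listed there as MRP63, and MRPL58, listed there as ICT1.

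The study measured RNA on 6 exon arrays (Human Exon 1.0 ST) from HCT116, an established human colorectal carcinoma line with wild-type p53, harvested at 12 h. All 6 samples are labelled HCT116 +/+, with no gene named for that genotype, and each group holds 2 arrays: control cells, cells given Nutlin-3, which keeps MDM2 from binding p53, and cells given 5FU (5-fluorouracil), which blocks thymidylate synthesis and enters RNA and DNA. No dose is stated for either drug. The sample labels call the control treatment "none" while the series design names DMSO, they write Nutlin 3R where the descriptions write Nutlin 3, and the extraction protocol names another RNA kit than the design does. Nothing says that the 2 arrays of a group came from separate cultures, so p-values measure the spread between these arrays, which may be technical. All values are log2 signals from a single cell line in bulk, in which fewer expressing cells and less RNA per cell cannot be told apart.

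The mitochondrial ribosome translates the few messages encoded by mitochondrial DNA, which specify core subunits of the respiratory chain and ATP synthase. Its rRNAs come from mitochondrial DNA, while all of its proteins are encoded in the nucleus, made by cytosolic ribosomes and imported. Some of them descend from bacterial ribosomal proteins and others are found in mitochondria alone. The small subunit binds the message and decodes it; the large subunit joins amino acids and passes the new protein through an exit tunnel towards the inner membrane.

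Known targets of p53 rose with both drugs: TP53I3 (log2 difference 2.80 after Nutlin-3 and 2.27 after 5FU), GDF15 (2.32 and 2.18), CDKN1A (2.10 and 1.78) and MDM2 (1.86 and 1.57) (limma adjusted p from 0.000845 to 0.0283). Of 7 colonic epithelial markers, 6 were measured, with gene means of 7.82 to 11.2 and summed levels of 57.4 to 57.9 in control, 57.8 to 58.3 after Nutlin-3 and 58.2 to 58.8 after 5FU. Fibroblast markers (7 of 8 measured, gene means 5.59 to 7.40) summed to 44.2 to 45.4, 44.5 to 45.1 and 44.3 to 45.3 in the same order, and blood cell markers (5 of 7 measured, gene means 5.48 to 6.88) to 32.02 to 32.3, 31.8 to 33.4 and 31.4 to 31.9. The array medians lay between 4.73 and 4.78.

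No member changed past the test in any comparison, against a background of 1.22% of all genes called after Nutlin-3, 0.448% after 5FU and 0.633% between the drugs (limma over all 17841 genes, Benjamini-Hochberg adjusted p under 0.05). At an unadjusted p under 0.05 the members numbered 4 of 76 after Nutlin-3, all lower, against 10.2% of all genes. After 5FU they numbered 6, 2 higher and 4 lower, against 10.7%. Between the drugs they numbered 7, 1 higher and 6 lower in Nutlin-3, against 13.3%. These shares of members were below the shares over all genes in each comparison. The median 95% confidence interval of a member's log2 difference after Nutlin-3 reached 0.42 to either side, and for 67 of 76 members the interval lay within 1 log2 unit of 0; for 5FU this held for 68 and between the drugs for 65. Small differences were therefore not detectable with 2 arrays a group, and no test showed that the levels were equal.

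After Nutlin-3, 64 of the 76 members had a log2 difference below 0, against 49.9% of all genes, in both subunits: 41 of 49 in the large and 23 of 27 in the small subunit. The median log2 difference was -0.18 over the members, -0.19 over the large subunit and -0.14 over the small subunit, beside 0.0006 over all genes, and the members ran from -0.64 to 0.19. After 5FU, 41 of 76 were below 0, against 49.7% of all genes, with medians of -0.0022 in the large and -0.043 in the small subunit. Nutlin-3 set directly against 5FU gave 63 of 76 below 0, against 50.8%, with medians of -0.20 and -0.21. The 3 comparisons share arrays and are not independent of each other.

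These counts and medians depended on single arrays. Without Nutlin-3 array 1, 41 of 76 members were below 0, with medians of -0.010 in the large and 0.0041 in the small subunit. Leaving out control array 1 left 45 below 0 and brought the medians to -0.032 and -0.063, and leaving out control array 2 to -0.35 and -0.31. Between the drugs, 44 members were below 0 without Nutlin-3 array 1 and 50 without 5FU array 2, with medians of -0.028 and -0.049 without Nutlin-3 array 1 and -0.10 and -0.056 without 5FU array 2. The 5FU count below 0 moved from 41 to 17 without 5FU array 1, to 25 without control array 1, to 57 without control array 2 and to 54 without 5FU array 2.

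**Figure D1:**
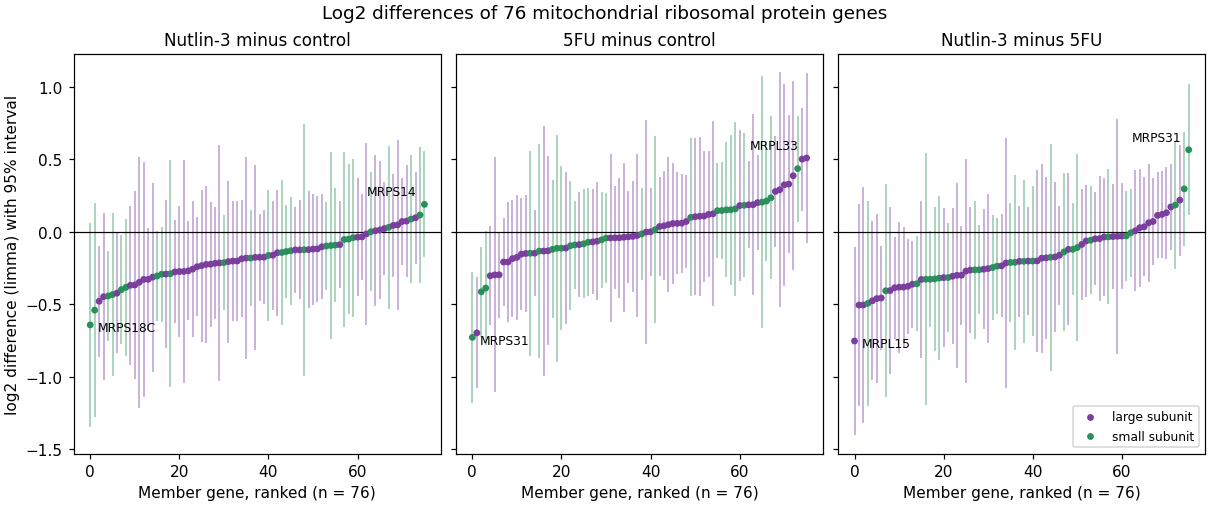
Log2 difference of each of the 76 measured members (points, ranked from lowest to highest in each panel) with its 95% interval (lines) for Nutlin-3 against control, 5FU against control and Nutlin-3 against 5FU; purple marks the large and green the small subunit. The ranks in the first and last panels cross 0 far to the right, with 64 and 63 members below it, while 41 lie below 0 after 5FU; most intervals include 0.

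The values of the members moved together from array to array, replicates included. Measured as the median over genes of the deviation from each gene's own mean over the 6 arrays, the large subunit stood at 0.21 and -0.066 on the 2 control arrays, at -0.23 and 0.023 after Nutlin-3 and at -0.051 and 0.19 after 5FU. The small subunit followed at 0.21 and -0.11, then -0.21 and 0.013, then -0.046 and 0.18. The same medians over all genes lay between -0.025 and 0.027. Control array 1 and 5FU array 2 were thus the high arrays for both subunits and Nutlin-3 array 1 the low one, and the group ranges overlapped in each comparison. Between the drugs, arrays of the same number kept 1 order: the Nutlin-3 median was below the 5FU median on array 1 and on array 2 in both subunits. Against control the order reversed: in both subunits each drug median was below the control median on array 1 and above it on array 2. Nutlin-3 was below 5FU in both numbers for 53 of 76 members (69.7%; 40.0% of all genes), although nothing says that a number marks a shared culture.

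Gene by gene, control array 1 was above control array 2 in 59 of 76 members (77.6%; 52.8% of all genes), Nutlin-3 array 2 above array 1 in 69 (90.8%; 59.5%) and 5FU array 2 above array 1 in 70 (92.1%; 60.5%). The lowest of the 6 arrays was Nutlin-3 array 1 for 42 members (55.3%; 26.3% of all genes), and the highest was control array 1 for 34 (44.7%; 18.1%) or 5FU array 2 for 27 (35.5%; 23.6%). The median gap between replicates was 0.28 in control, 0.23 after Nutlin-3 and 0.22 after 5FU, beside 0.19, 0.21 and 0.16 over all genes. In 46 of 76 members the difference between Nutlin-3 and control was smaller than the gap between the 2 control arrays, a share of 60.5% beside 60.8% of all genes; for 5FU it was 58 of 76, or 76.3%, beside 60.8%.

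**Figure D2:**
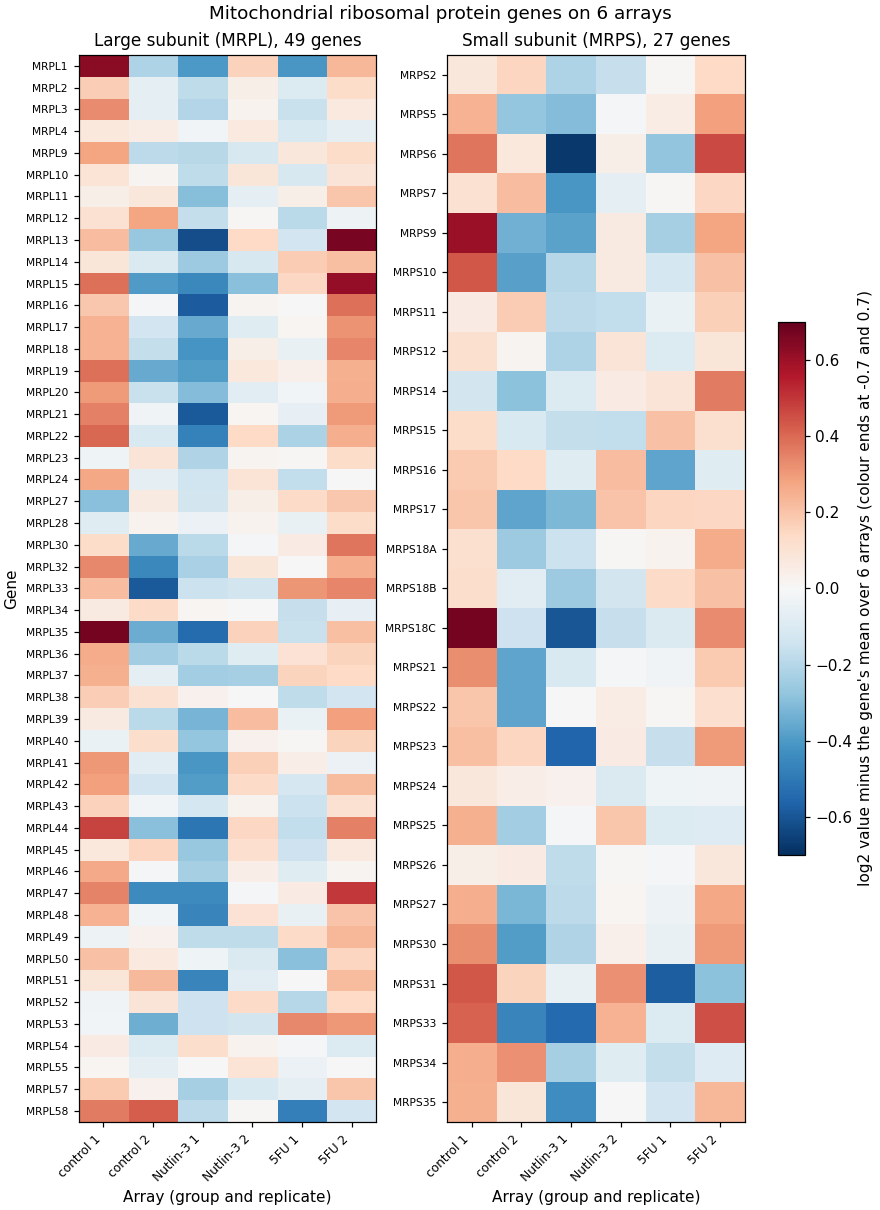
Each row is a member and each column an array; colour gives the log2 value minus the gene's mean over the 6 arrays, with red above and blue below, in a panel for each subunit. Control array 1 and 5FU array 2 are mostly red and Nutlin-3 array 1 mostly blue, and 42 members have their lowest value on Nutlin-3 array 1.

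Other gene lists moved on the same arrays. The nuclear-encoded respiratory chain and ATP synthase genes, 74 of 75 measured, stood at 0.067 and -0.11 in control, -0.22 and 0.062 after Nutlin-3 and 0.0030 and 0.22 after 5FU. The cytosolic ribosomal proteins, 71 of 78 measured, stood at 0.069 and -0.11, -0.14 and 0.066, and 0.012 and 0.11. The 15 mitochondrial translation factors stood at 0.25 and -0.0092, -0.21 and 0.12, and -0.11 and 0.12. Each of these lists was lowest on Nutlin-3 array 1, as both mitoribosome subunits were. What sets the level of these arrays was not tested.

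**Figure D3:**
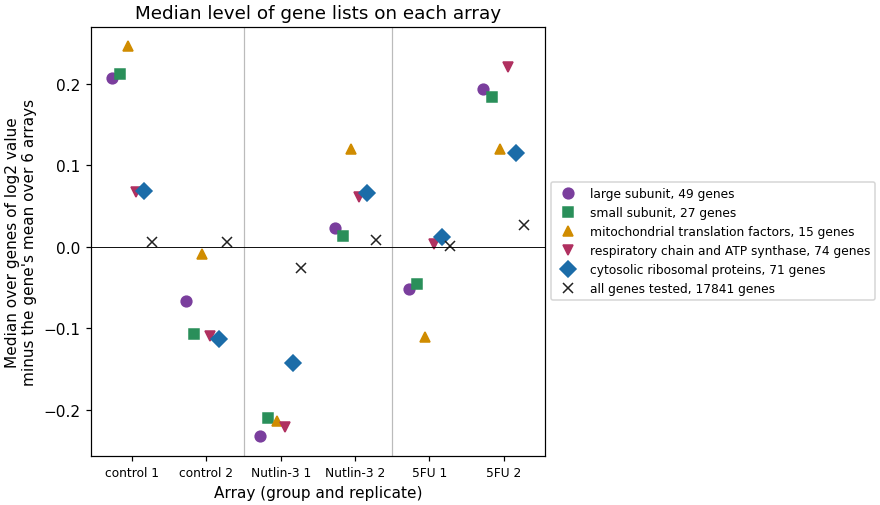
Median over the genes of a list of the log2 value minus each gene's mean over the 6 arrays, by array, for both mitoribosome subunits, 3 other lists and all genes tested. The replicate arrays of a group stand apart in every list but all genes tested, which stay between -0.025 and 0.027.

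MRPL58 had the lowest adjusted p of the 76 members after 5FU. MRPL58 is a peptidyl-tRNA hydrolase built into the large subunit, related to bacterial release factors, that can free peptides from stalled ribosomes. Its log2 value was 9.51 and 9.57 on the control arrays, 8.97 and 9.15 after Nutlin-3 and 8.67 and 9.01 after 5FU. Both drug groups lay below both controls and overlapped each other. The log2 difference was -0.70 after 5FU (1.62-fold lower, 95% interval -1.08 to -0.31, limma adjusted p = 0.176) and -0.48 after Nutlin-3 (1.39-fold lower, interval -0.86 to -0.10, adjusted p = 0.348). All 6 of its used probe sets were below 0 with both drugs; they were read on the same arrays and are not independent. With 1 array left out at a time, the log2 difference after 5FU ran from -0.87 to -0.53. Its sign could not change, because both drug groups lay below both controls.

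MRPS34 showed the lowest adjusted p of the members after Nutlin-3. It is a mitochondria-specific protein needed for a stable small subunit, and inherited loss of it causes mitochondrial disease. Its value was 9.39 and 9.46 in control, 8.91 and 9.06 after Nutlin-3 and 8.97 and 9.05 after 5FU, so that all 4 drug arrays lay below both controls. The log2 difference was -0.44 after Nutlin-3 (1.36-fold lower, interval -0.76 to -0.13, adjusted p = 0.266) and -0.41 after 5FU (1.33-fold lower, interval -0.73 to -0.10, adjusted p = 0.323). Among its 5 probe sets, 4 were below 0 after Nutlin-3 and 5 after 5FU.

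MRPS31, another mitochondria-specific protein of the small subunit, gave the largest difference of any member after 5FU and was the member with an unadjusted p under 0.05 for a higher level in Nutlin-3 than in 5FU. It read 7.83 and 7.55 in control, 7.34 and 7.71 after Nutlin-3 and 6.81 and 7.11 after 5FU. Both 5FU arrays lay below the other 4, and Nutlin-3 overlapped the controls. The log2 difference was -0.73 after 5FU (1.66-fold lower, interval -1.18 to -0.28, adjusted p = 0.229), -0.16 after Nutlin-3 (adjusted p = 0.889) and 0.57 for Nutlin-3 minus 5FU (interval 0.11 to 1.02, adjusted p = 0.276). Its 8 probe sets were all below 0 after 5FU, from -1.31 to -0.10, and all above 0 for Nutlin-3 minus 5FU.

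MRPL53 differed in the other direction. It is a mitochondria-specific large-subunit protein. Its value was 8.84 and 8.51 in control, 8.71 and 8.73 after Nutlin-3 and 9.19 and 9.16 after 5FU, with both 5FU arrays above the other 4. The log2 difference was 0.50 after 5FU (1.42-fold higher, interval 0.15 to 0.86, adjusted p = 0.292) and -0.46 for Nutlin-3 minus 5FU (1.37-fold lower in Nutlin-3, adjusted p = 0.267, the lowest of the members in that comparison). All 5 probe sets were above 0 after 5FU, and 2 of 5 were above 0 after Nutlin-3.

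**Figure D4:**
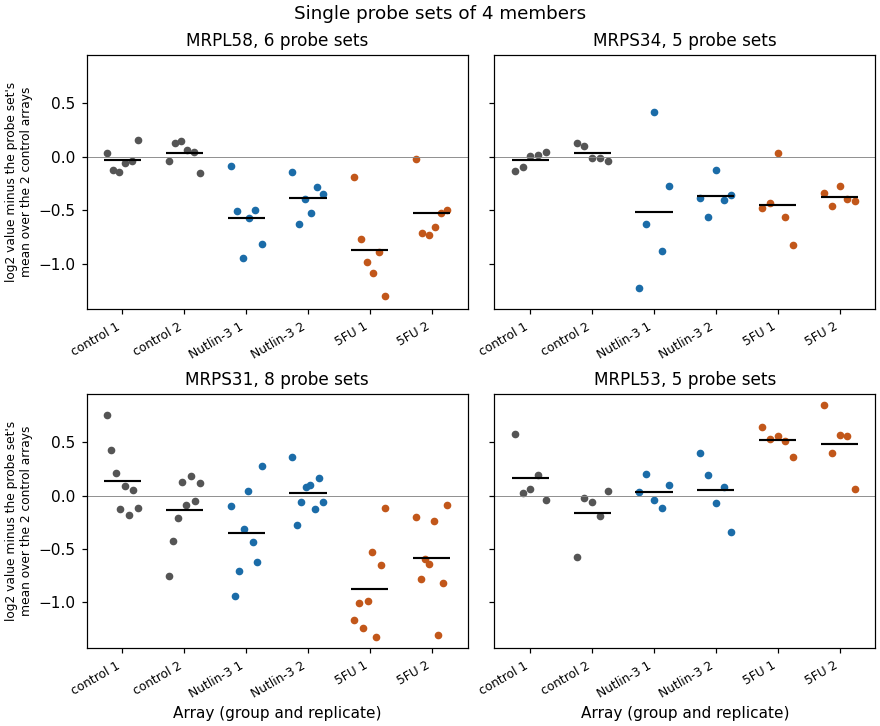
Log2 value of each used probe set minus its mean over the 2 control arrays, by array, for MRPL58, MRPS34, MRPS31 and MRPL53; points are probe sets and black bars their mean on that array. The bars of MRPL58 and MRPS34 lie below 0 on all 4 drug arrays, those of MRPS31 are lowest on the 2 5FU arrays, and those of MRPL53 are highest there.

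Over single probe sets the test called 0.0% after Nutlin-3, 0.0% after 5FU and 0.00142% between the drugs of the 705699 probe sets tested, and none of the 799 used probe sets in measured members. At an unadjusted p under 0.05, 26 of the 799 passed after Nutlin-3, against a background of 6.14% of all probe sets tested. After 5FU 38 passed, against 6.27%, and between the drugs 34, against 7.39%. Below 0 were 566 of the 799 after Nutlin-3, against 47.4% of all probe sets tested. After 5FU the count was 423, against 51.1%, and between the drugs 529, against 47.0%. The probe sets tested include ones without a gene symbol. Most members had probe sets on both sides of 0: 71 of 76 after Nutlin-3, 68 after 5FU and 66 between the drugs, with a median spread from lowest to highest of 0.86, 0.91 and 0.93 log2 units. Examples chosen after their values were seen are MRPL21 after Nutlin-3, from -1.87 to 0.90, and MRPL46 after 5FU, from -0.82 to 1.49.

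The stretches before the start sites of MRPL58, MRPS31 and MRPL53, described above, and of MRPS18C, the lowest member after Nutlin-3, are shown from RefSeq (GRCh38.p14), each 150 bases long, 5' to 3' on the gene's strand and ending at the base before the start. Capitals mark CCGGAAG, the core bound by ETS factors such as GABP, or, in MRPS18C, GCGCATGC, part of the site of NRF1; both factors are known regulators of nuclear genes for mitochondrial proteins. MRPL53 lies at chr2:74472681-74472830 (minus strand), MRPL58 at chr17:75012520-75012669 (plus), MRPS18C at chr4:83455908-83456057 (plus) and MRPS31 at chr13:40771191-40771340 (minus). That of MRPS34 lies within the neighbouring gene EME2 and is not shown.
MRPL53: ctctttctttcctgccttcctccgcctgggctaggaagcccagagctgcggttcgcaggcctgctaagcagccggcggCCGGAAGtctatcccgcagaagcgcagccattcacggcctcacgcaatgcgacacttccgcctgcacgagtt
MRPL58: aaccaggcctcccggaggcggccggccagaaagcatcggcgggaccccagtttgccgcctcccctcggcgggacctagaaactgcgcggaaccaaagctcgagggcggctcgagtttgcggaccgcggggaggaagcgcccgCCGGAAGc
MRPS18C: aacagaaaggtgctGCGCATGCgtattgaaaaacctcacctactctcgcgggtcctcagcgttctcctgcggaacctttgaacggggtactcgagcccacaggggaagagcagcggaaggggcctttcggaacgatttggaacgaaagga
MRPS31: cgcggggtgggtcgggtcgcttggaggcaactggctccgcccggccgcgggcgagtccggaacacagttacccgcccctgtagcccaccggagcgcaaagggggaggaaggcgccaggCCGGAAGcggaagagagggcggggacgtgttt
The capitals begin 72 bases before the start in MRPL53, 8 in MRPL58, 32 in MRPS31 and 136 in MRPS18C. The stretches of MRPL58, MRPS31 and MRPL53 hold the same core. Whether the core bears on the log2 differences of these genes was not tested.

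Of the 77 members, 69 matched an entry of RefSeq windows running from 250 bases before to 50 after a start, and the shares below count a window with the letters on either strand. CCGGAAG was found in 29 of 69 (42.0%), 17 of 42 in the large and 12 of 27 in the small subunit, beside 14.2% of 15843 windows of protein-coding genes and 10.7% of all 27305. Its longer form CCGGAAGT, which overlaps it, was in 11 (15.9%; coding 6.19%; all 4.43%). AAGATGGC, part of the site of YY1, was in 20 (29.0%, coding 3.91%, all 3.03%), with 15 of its 21 matches reaching the start base or lying after it. GCGCATGC was in 6 (8.70%; coding 4.26%; all 3.27%). CCAAT, bound by NF-Y, was in 20 (29.0%; coding 36.4%; all 35.7%), and the E2F strings TTTCCCGC and TTTGGCGC in 1 (1.45%; coding 2.18%; all 1.66%) and 2 (2.90%; coding 0.890%; all 0.659%). The strings for NRF1 and YY1 were shortened after the data were seen, and shares for the longer ones are not given. These matches describe the letters in the windows.

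By origin and place in the ribosome, the median log2 differences after Nutlin-3 lay close together. The 30 large-subunit genes with bacterial homologues gave -0.18 after Nutlin-3 and 0.058 after 5FU, and the 21 mitochondria-specific proteins of the large subunit, which here include MRPS18A and MRPS30 by their place in the known structure, gave -0.19 and -0.038. In the small subunit, the 15 measured bacterial homologues gave -0.14 and -0.056 and the 10 mitochondria-specific proteins -0.15 and -0.056. The 7 proteins listed around the exit tunnel gave -0.19 after Nutlin-3, 7 of 7 below 0, against 49.9% of all genes. In none of the 7 did the arrays separate Nutlin-3 from control. Their median deviation from each gene's mean over the 6 arrays was 0.27 and -0.11 in control and -0.35 and 0.097 after Nutlin-3. The 9 listed for the central protuberance gave -0.13; that list holds MRPS30 and not MRPL58. The 3 of the stalk, which recruits translation factors, gave -0.24. None of these genes was called by limma.

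Counted by arrays without overlap, 23 of 76 members were lower after Nutlin-3 than in control, against 18.0% of all genes. A higher level was found in 1, against 16.2%. After 5FU, 10 were lower, against 18.0% of all genes, and 7 higher, against 20.0%. Nutlin-3 was below 5FU in 25 members, against 25.2% of all genes, and above it in 8, against 20.8%. Among the 23, 11 were of the 49 large-subunit members and 12 of the 27 small-subunit members.

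In the large subunit, the lower members after Nutlin-3 included MRPL51 and MRPL37, both mitochondria-specific. MRPL51 read 9.22 and 9.37 in control, 8.68 and 9.07 after Nutlin-3 and 9.15 and 9.36 after 5FU, with a log2 difference of -0.42 after Nutlin-3 (adjusted p = 0.48) and all 10 probe sets below 0. MRPL37 read 9.81 and 9.50, 9.32 and 9.33 and 9.72 and 9.71, with both Nutlin-3 arrays below the other 4. Its log2 difference was -0.33 after Nutlin-3 (adjusted p = 0.537) and -0.39 for Nutlin-3 minus 5FU (adjusted p = 0.334), and its 12 probe sets were below 0 in both comparisons.

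Of the stalk proteins, MRPL12, which carries the factor-binding domains, read 9.39 and 9.56 in control, 9.12 and 9.30 after Nutlin-3 and 9.10 and 9.25 after 5FU. All 4 drug arrays lay below both controls, with log2 differences of -0.27 after Nutlin-3 (adjusted p = 0.647) and -0.30 after 5FU (adjusted p = 0.542). MRPL11, at the base of the stalk, read 8.39 and 8.42, 8.05 and 8.28 and 8.39 and 8.54, and stood below control without overlap after Nutlin-3, with a log2 difference of -0.24 (adjusted p = 0.704) beside 0.059 after 5FU. MRPL10, which anchors MRPL12, gave -0.10 and -0.07; it was chosen after its values were seen, to complete the stalk.

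MRPL41, a mitochondria-specific protein also described as acting in p53-linked growth arrest, read 8.23 and 7.85 in control, 7.52 and 8.09 after Nutlin-3 and 7.97 and 7.89 after 5FU. Its groups overlapped, with log2 differences of -0.23 and -0.11 (adjusted p = 0.846 and 0.958). MRPL38, of the central protuberance, read 8.48 and 8.42, 8.33 and 8.31 and 8.13 and 8.17. Its 5FU arrays were the lowest, with a log2 difference of -0.30 from control (adjusted p = 0.463), and the 3 groups did not overlap.

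The large-subunit members that stood higher after 5FU without overlap of the groups included MRPL33 and MRPL27, homologues of bacterial proteins near the site of tRNA binding. MRPL33 read 7.39 and 6.58 in control, 7.02 and 7.04 after Nutlin-3 and 7.48 and 7.51 after 5FU, a log2 difference of 0.51 after 5FU (adjusted p = 0.552) with controls 0.80 apart. MRPL27 read 8.63 and 8.99, 8.80 and 8.97 and 9.06 and 9.12, a difference of 0.28 after 5FU (adjusted p = 0.661). MRPL15, a bacterial homologue, read 8.05 and 7.27, 7.22 and 7.37 and 7.82 and 8.28. It had the lowest Nutlin-3 minus 5FU value of all members, -0.75 (interval -1.41 to -0.10, adjusted p = 0.31), and its 8 probe sets were all below 0, from -2.57 to -0.061.

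Other large-subunit members differed between the drugs without overlap but far from the threshold. MRPL47, at the exit tunnel, read 8.90 and 9.33 after Nutlin-3 and 9.40 and 9.84 after 5FU, with controls of 9.69 and 8.90, a log2 difference of -0.51 between the drugs (adjusted p = 0.521). MRPL54 and MRPL34 were slightly higher in Nutlin-3, by 0.13 (adjusted p = 0.721) and 0.12 (adjusted p = 0.731).

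In the small subunit, the 2 members with the lowest log2 differences after Nutlin-3 were MRPS18C and MRPS6, whose bacterial homologues bind side by side. MRPS18C read 7.80 and 6.99 in control, 6.53 and 6.97 after Nutlin-3 and 7.03 and 7.47 after 5FU. Both Nutlin-3 arrays lay below both controls, which were themselves 0.81 apart, and the log2 difference was -0.64 (1.56-fold lower, interval -1.35 to 0.063, adjusted p = 0.552); without control array 1 it was -0.24 and without control array 2 -1.05. MRPS6 read 7.60 and 7.30, 6.55 and 7.27 and 6.95 and 7.68, a difference of -0.54 after Nutlin-3 (adjusted p = 0.688), with Nutlin-3 array 1 the lowest of the 6.

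MRPS18A, MRPS18B and MRPS18C are 3 proteins related to bacterial S18, although the split by origin given earlier counts MRPS18C alone among the bacterial homologues and the other two as mitochondria-specific. MRPS18B read 9.37 and 9.17 in control, 8.99 and 9.12 after Nutlin-3 and 9.38 and 9.45 after 5FU, below control after Nutlin-3 (-0.21, adjusted p = 0.739) and above it after 5FU (0.15, adjusted p = 0.85); Nutlin-3 minus 5FU was -0.36 (adjusted p = 0.34). MRPS18A, which sits in the large subunit, read 8.45 and 8.08, 8.18 and 8.35 and 8.36 and 8.59, with differences of -0.0001 after Nutlin-3 and 0.21 after 5FU. The difference between the 3 genes was not tested.

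MRPS14, a homologue of a bacterial protein in the head of the small subunit, was the member above control without overlap after Nutlin-3. It read 8.01 and 7.85 in control, 8.05 and 8.20 after Nutlin-3 and 8.24 and 8.51 after 5FU. The log2 difference was 0.19 after Nutlin-3 (adjusted p = 0.817) and 0.44 after 5FU (1.35-fold higher, interval 0.07 to 0.80, adjusted p = 0.377). MRPS16, whose loss causes a mitochondrial disease of infancy, read 9.11 and 9.07, 8.84 and 9.15 and 8.56 and 8.84, with 5FU lowest at -0.39 from control (adjusted p = 0.473) and Nutlin-3 at -0.092. MRPS15 and MRPS25 differed between the drugs in opposite directions, by -0.33 (adjusted p = 0.38) and 0.18 (adjusted p = 0.721) for Nutlin-3 minus 5FU.

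MRPS12, part of the decoding centre, read 7.83 and 7.74 in control, 7.50 and 7.81 after Nutlin-3 and 7.62 and 7.80 after 5FU, with overlapping groups (-0.13 and -0.072). MRPS22, a mitochondria-specific protein tied to mitochondrial disease, read 8.69 and 8.12, 8.49 and 8.55 and 8.50 and 8.61 (0.12 and 0.15). MRPS30, also known as a programmed cell death protein and placed in the large subunit, read 8.86 and 8.14, 8.32 and 8.57 and 8.48 and 8.83 (-0.053 and 0.16). In these 3 genes the arrays of each drug overlapped those of control. For MRPS12 the Nutlin-3 difference was larger than the gap between the controls (0.093) but smaller than that between the Nutlin-3 arrays (0.31).

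The members also differed in how widely they ranged over the 6 arrays; those named here were chosen after their values were seen. MRPL55 ranged over 0.16, MRPL4 over 0.18 and MRPS24 over 0.18 log2 units. MRPL13 ranged over 1.29, from 6.82 on Nutlin-3 array 1 to 8.10 on 5FU array 2, MRPS18C over 1.27 and MRPL35 over 1.21. The widest gaps between the 2 controls were those of MRPL35 (7.98 and 6.96), MRPS9 (8.04 and 7.10), MRPS33 (7.65 and 6.77) and MRPL1 (9.02 and 8.17), with control array 1 the higher in each. MRPS7, a homologue of a protein in the head of the bacterial small subunit, completed the 4 members with an unadjusted p under 0.05 after Nutlin-3, beside MRPL58, MRPS34 and MRPL51: it read 8.89 and 9.00 in control and 8.38 and 8.72 after Nutlin-3 (-0.40, adjusted p = 0.46).

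The genes that build and use the mitochondrial ribosome gave the same count of 0 called genes by limma in every list and comparison. The 25 genes of mitoribosome assembly and rRNA modification had a median log2 difference of -0.14 after Nutlin-3 and -0.045 after 5FU. The 15 translation factors gave -0.076 and -0.083. After Nutlin-3, 14 of the 15 were below 0, against 49.9% of all genes. In 3 of them the arrays lay below control without overlap, against 18.0% of all genes. Of 19 mitochondrial aminoacyl-tRNA synthetases, which charge the tRNAs, the 17 measured gave -0.065 and -0.032. The genes of mitochondrial DNA upkeep and transcription, 16 of 17 measured, gave -0.13 and -0.036, and the 4 measured of 5 mitoribosomal proteins with other symbols -0.055 and -0.0031.

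The nuclear-encoded respiratory chain and ATP synthase genes had a 5FU median of 0.15, with 56 of 74 above 0, against 8968 of all 17841 genes. By the median level of the list, 5FU array 1 (0.003) lay between the control arrays (0.067 and -0.11). The median log2 difference after Nutlin-3 was -0.056. The difference from the mitoribosome genes was not tested. Cytosolic ribosomal proteins gave 0.11 after 5FU and -0.004 after Nutlin-3. Among 8 nuclear regulators of mitochondrial genes the median was -0.21 after Nutlin-3, with 6 below 0 and 2 above, and -0.089 after 5FU. The 2 lowest after Nutlin-3 were chosen after their values were seen. GABPB1, a partner subunit of GABP, stood at -0.67 (limma adjusted p = 0.241) and NRF1 at -0.63 (adjusted p = 0.194). After 5FU, GABPB1 stood at 0.22 and NRF1 at -0.43. GABPA stood at -0.18 after Nutlin-3, and the 2 above 0 were PPARGC1A (0.32) and ESRRA (0.20). The lists were chosen with earlier results of these arrays known.

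Many members have copies elsewhere in the genome: 41 of the 77 have a named pseudogene in the RefSeq table, 100 in all, with 9 for MRPS21, 8 for MRPL57 and 6 for MRPS18C. Whether probes also bind RNA from such copies was not tested, and the values of these members are uncertain to that extent.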

How the data were processed

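RNA of 6 HCT116 samples, 2 each for control, Nutlin-3 and 5FU at 12 h, was measured on exon arrays. The deposited table holds log2 values per probe set that the authors made with RMA, per the submitters' processing notes; the log2 scale was read from the values, and scanner files were not used here. It holds 1411399 probe sets, of which 357604 carry 1 gene symbol, 15322 several and 1038473 none. Of 19560 symbols, 16472 were current in the RefSeq table, 2966 were updated and 122 were kept as annotated. A gene's value was the mean of its probe sets whose mean over all arrays exceeded the median of such means (4.73), with at least 2 probe sets. The 3 groups were fitted together with limma 3.58.1 (R 4.3.3; 3 residual degrees of freedom), with Benjamini-Hochberg adjustment over all 17841 genes and calls under 0.05. Intervals are limma's at 95%. The 6 arrays limit the precision: an exact two-sided permutation test of 2 against 2 cannot go below 0.333. The scripts were tested on simulated data.

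Members named in the text are, in each comparison, any that were called, the 3 highest and 3 lowest of each subunit that rest on 3 or more used probe sets and whose arrays separate the groups, and a fixed list of 11; others are marked as chosen after their values were seen. The members and lists were chosen with earlier results of these data known. Motif strings of NRF1, YY1 and ETS factors were shortened after the data were seen. Alternatives were other summaries, filters and scalings, a replicate block, a crossed pairing of the replicate numbers and leaving out each array. Limma's trend and robust settings and fits of only the compared groups were also run.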

Additional observations from a re-analysis of the deposited data

How the results depend on the processing

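Under the other probe-set filters, gene summaries and scalings, no member was called, and the medians kept their sign: after Nutlin-3 from -0.20 to -0.17 in the large and -0.20 to -0.13 in the small subunit, after 5FU from -0.050 to -0.0003 and -0.056 to -0.0020, and between the drugs from -0.21 to -0.13 and -0.24 to -0.19. Leaving out 1 array at a time moved the count of members below 0 from 41 to 70 after Nutlin-3 and from 17 to 57 after 5FU, and the small-subunit median after 5FU from -0.14 to 0.24. The replicate number as a block called 0 members in each comparison; the correlation of replicate differences was -0.565 between Nutlin-3 and control and -0.525 between 5FU and control, so that same-numbered arrays did not deviate together with the controls, and 0.634 between the drugs, whose same-numbered arrays did. A crossed pairing, chosen after seeing the data, called 5, 5 and 12 members after Nutlin-3, after 5FU and between the drugs. It was set from the signs of these correlations in the same values, and its share called over all genes is not given. These counts are therefore not a result about the members. Of 810 values of named members under the alternatives other than the crossed pairing, 31 changed sign, 22 of them with an array left out. Many of these members were named because their arrays separate the groups, and for those leaving out an array cannot change the sign. The 31 is therefore no measure of how stable the members are as a whole. The cause of the shifts between settings was not tested.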
